A study of Mus musculus with 15 samples.

Results

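Genes of the germ line and of meiosis were examined in mouse fibroblasts and in pluripotent stem cells. The set was a list of 35 germ cell, piRNA pathway and meiosis genes, each represented by its brightest probe set over all 15 arrays among probe sets annotated to a single gene. Of the 35 genes, 33 had such a probe set, out of 18193 genes measured in all. Fkbp6 and Nanos3 had none and were not analysed here.

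Affymetrix mouse arrays had been run on 5 groups of 3 samples, which the submitters describe as biological replicates. Embryonic fibroblasts (MEF, B6D2F1 background) were the cells from which induced pluripotent stem (iPS) cells had been made. CL11 is an embryonic stem (ES) cell line and IP14D-1 and IP20D-3 are iPS lines, all of the B6D2F1 background, whereas the iPS line IP14D-101 has the C57x129S2 background. Each pluripotent group was 1 line, so a line cannot be told apart from a class of cells, and for IP14D-101 the line and its background cannot be told apart. Whether the MEF replicates came from separate preparations is not known here. The labels put the ES and iPS cells on mitomycin C-treated MEF feeders with LIF, in medium holding either serum or a serum replacement, and do not say which medium a line had. The arrays measured bulk RNA, in which fewer cells expressing a gene and less RNA per cell cannot be told apart.

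Germ cells arise in the early embryo from cells that still share much of their transcription with pluripotent cells, and later enter meiosis, in which homologous chromosomes are aligned, held by the synaptonemal complex and recombined. In male germ cells a class of small RNAs, the piRNAs, is loaded onto PIWI proteins in perinuclear granules and silences transposons. Many genes of these programs have promoters rich in CpG that are methylated and silent in somatic cells, and in ES cells a repressor complex that includes MGA, MAX and E2F6 binds E-box and E2F-type motifs at some of them.

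Promoter windows from RefSeq (assembly GRCm38.p6, from 250 bases before to 50 after a start site) were found for 27 of the 33 measured genes, 33 windows in all. Windows were searched for the E-box CACGTG, which reads the same on both strands, and for the E2F-type motif TCCCGC on either strand. Each motif holds 1 CG, so matches also enter the CpG count, and the motifs were not otherwise checked for overlap. Of the 33 windows, 16 held the E-box (48.5%), against 7.15% of all 32851 windows in the RefSeq table and 8.72% of the 18109 windows of measured genes. The E2F-type motif was found in 16 (48.5%), against 20.0% of all windows and 29.1% of those of measured genes. Both motifs occurred in 8 (24.2%), against 1.99% and 3.04%. The median CpG observed over expected was 0.716 in the members' windows, 0.384 in all windows and 0.650 in those of measured genes, and 75.8%, 35.8% and 54.6% of windows lay above 0.6. Among roles, the E2F-type motif was found in 8 of the 9 windows of genes of the meiotic chromosome axis and recombination and in 3 of the 13 windows of piRNA and germ granule genes. The members were a chosen list, several genes have more than 1 window, and a match is a description of letters and not a binding site.

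**Figure D1:**
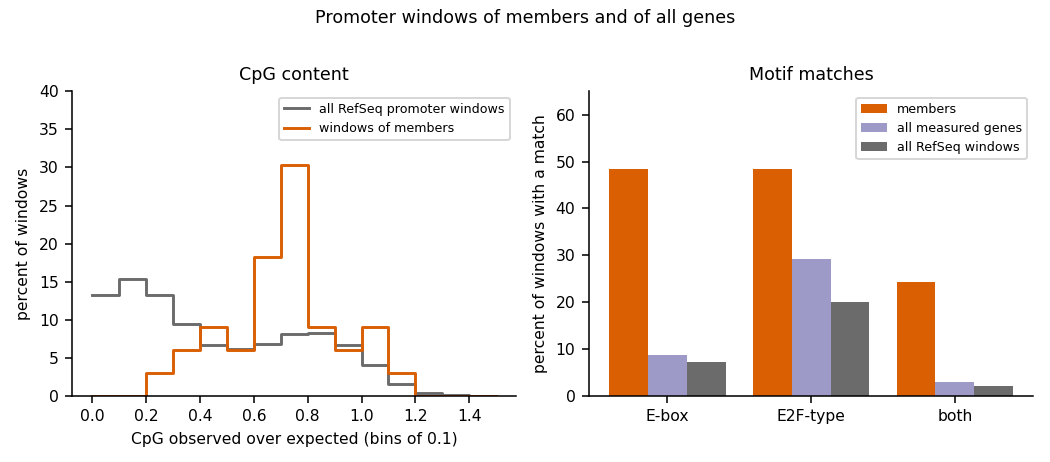
Left, percent of promoter windows (y axis) by CpG observed over expected (x axis, bins of 0.1) for all RefSeq windows (grey) and the 33 windows of members (orange). Right, percent of windows with an E-box, an E2F-type motif or both; the E-box was found in 48.5% of the members' windows, 8.72% of those of all measured genes and 7.15% of all windows.

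The windows of 5 genes are shown because the results below turn on them, each read 5′ to 3′ on the gene's strand with matches to either motif in capitals. Ddx4, Mael, Sycp3 and Stag3 hold both motifs and were higher than fibroblasts in all 4 pluripotent lines. Stra8 holds neither, has a CpG observed over expected of 0.430, and had the largest called difference between lines among members above background in both.
Ddx4 promoter (GRCm38.p6, chr13:112652261-112652560, - strand): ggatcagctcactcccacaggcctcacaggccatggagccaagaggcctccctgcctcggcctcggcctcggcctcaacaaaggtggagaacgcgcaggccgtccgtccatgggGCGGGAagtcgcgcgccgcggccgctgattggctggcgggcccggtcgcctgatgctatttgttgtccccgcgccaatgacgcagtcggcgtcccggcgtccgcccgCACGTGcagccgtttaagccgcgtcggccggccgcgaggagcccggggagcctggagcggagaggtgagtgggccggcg
Mael promoter (GRCm38.p6, chr1:166238695-166238994, - strand): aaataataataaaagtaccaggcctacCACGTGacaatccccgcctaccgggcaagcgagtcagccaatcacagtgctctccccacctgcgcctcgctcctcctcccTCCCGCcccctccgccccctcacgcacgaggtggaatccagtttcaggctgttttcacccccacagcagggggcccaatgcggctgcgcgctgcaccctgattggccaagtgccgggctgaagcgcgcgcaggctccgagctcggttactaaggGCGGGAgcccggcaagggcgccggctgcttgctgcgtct
Sycp3 promoter (GRCm38.p6, chr10:88459337-88459636, + strand): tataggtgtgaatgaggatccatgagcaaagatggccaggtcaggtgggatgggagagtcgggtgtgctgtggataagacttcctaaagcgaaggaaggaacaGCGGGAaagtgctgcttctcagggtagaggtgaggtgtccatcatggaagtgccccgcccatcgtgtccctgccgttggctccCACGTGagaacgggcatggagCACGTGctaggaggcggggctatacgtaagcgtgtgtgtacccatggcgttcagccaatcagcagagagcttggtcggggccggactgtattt
Stag3 promoter (GRCm38.p6, chr5:138280259-138280558, + strand): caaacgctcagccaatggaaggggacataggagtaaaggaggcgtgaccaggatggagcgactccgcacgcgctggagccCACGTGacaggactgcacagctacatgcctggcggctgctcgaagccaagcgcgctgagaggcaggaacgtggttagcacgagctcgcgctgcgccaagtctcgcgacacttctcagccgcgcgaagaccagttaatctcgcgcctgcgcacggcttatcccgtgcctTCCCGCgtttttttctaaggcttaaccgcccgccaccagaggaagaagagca
Stra8 promoter (GRCm38.p6, chr6:34920698-34920997, + strand): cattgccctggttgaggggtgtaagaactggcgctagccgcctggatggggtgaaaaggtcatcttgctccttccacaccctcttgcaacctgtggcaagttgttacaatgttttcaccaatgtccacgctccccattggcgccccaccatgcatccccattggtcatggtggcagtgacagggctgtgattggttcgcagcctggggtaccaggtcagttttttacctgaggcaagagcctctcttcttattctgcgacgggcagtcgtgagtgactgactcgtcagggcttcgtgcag
In these windows Sycp3 has 2 E-boxes and 1 E2F-type match, Mael has 1 and 2, and Ddx4 and Stag3 have 1 of each. CpG observed over expected was 0.978 for Ddx4, 0.780 for Mael, 0.666 for Sycp3 and 1.06 for Stag3. Tdrd12, which also differed between lines, has 2 windows with neither motif and values of 0.408 and 0.341. Sycp3 and Stag3, with both motifs, were called in 4 and 3 pairs of lines, and Ddx4 and Mael, also with both, in 0. Stra8 and Tdrd12, with neither, were called in 4 and 5 pairs, and Dazl, also with neither, in 0. A relation between the motifs and differences between lines was not tested.

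Levels are given as log2(signal + 16) of the deposited signals after each array was scaled to a common trimmed mean. The trimmed means before scaling ran from 11198 to 20466, a ratio of 1.83, and replicates correlated at 0.941 to 0.954. Background was set at 11.04 (a signal of 2087), the 95th percentile of 39 olfactory receptor genes, and 63.95% of all gene values lay above it. Marker genes matched the labelled cell types: 6 of 6 pluripotency markers lay above background in each line and 0 of 6 in MEF, and all 8 fibroblast markers lay above it in MEF. The summed signal of the fibroblast markers ran from 4178167 to 4618214 in MEF and from 8534 to 28144 in the lines. It was highest among the lines in IP14D-1 (25956 to 28144), where 5 of the 8 were above background, against 2 of 8 in each other line. Of 10 markers of the somatic cells of the gonad, Amh, Dhh and Hsd3b1 were below background in every group, while 3 were called higher than MEF and 1 lower in CL11, 3 and 2 in IP14D-1, 4 and 3 in IP14D-101, and 1 and 3 in IP20D-3. Cyp11a1 was called higher in all 4 lines (means of 11.89 to 13.51, against 9.07 in MEF) and Gata4 in all but IP20D-3 (13.90 in CL11, 11.45 in IP14D-1 and 13.58 in IP14D-101, against 9.86 in MEF). The summed signal of all 10 was 31932 to 93118 in the lines against 49963 to 52275 in MEF, and their part in the results was not tested.

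Most of the germ line genes were below background in fibroblasts and above it in every pluripotent line. In MEF 1 of the 33 members, Asz1, had a mean above background (3.03%), against 62.0% of all genes. In CL11, IP14D-1 and IP14D-101 26 members each were above it (78.8%), and in IP20D-3 28 were (84.8%), against 62.3%, 64.3%, 61.7% and 62.6% of all genes. The median member level was 9.11 in MEF and 13.36 in CL11. Among iPS lines it was 12.98 (IP14D-1), 12.82 (IP14D-101) and 13.24 (IP20D-3), while the median over all genes in MEF was 12.46.

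**Figure D2:**
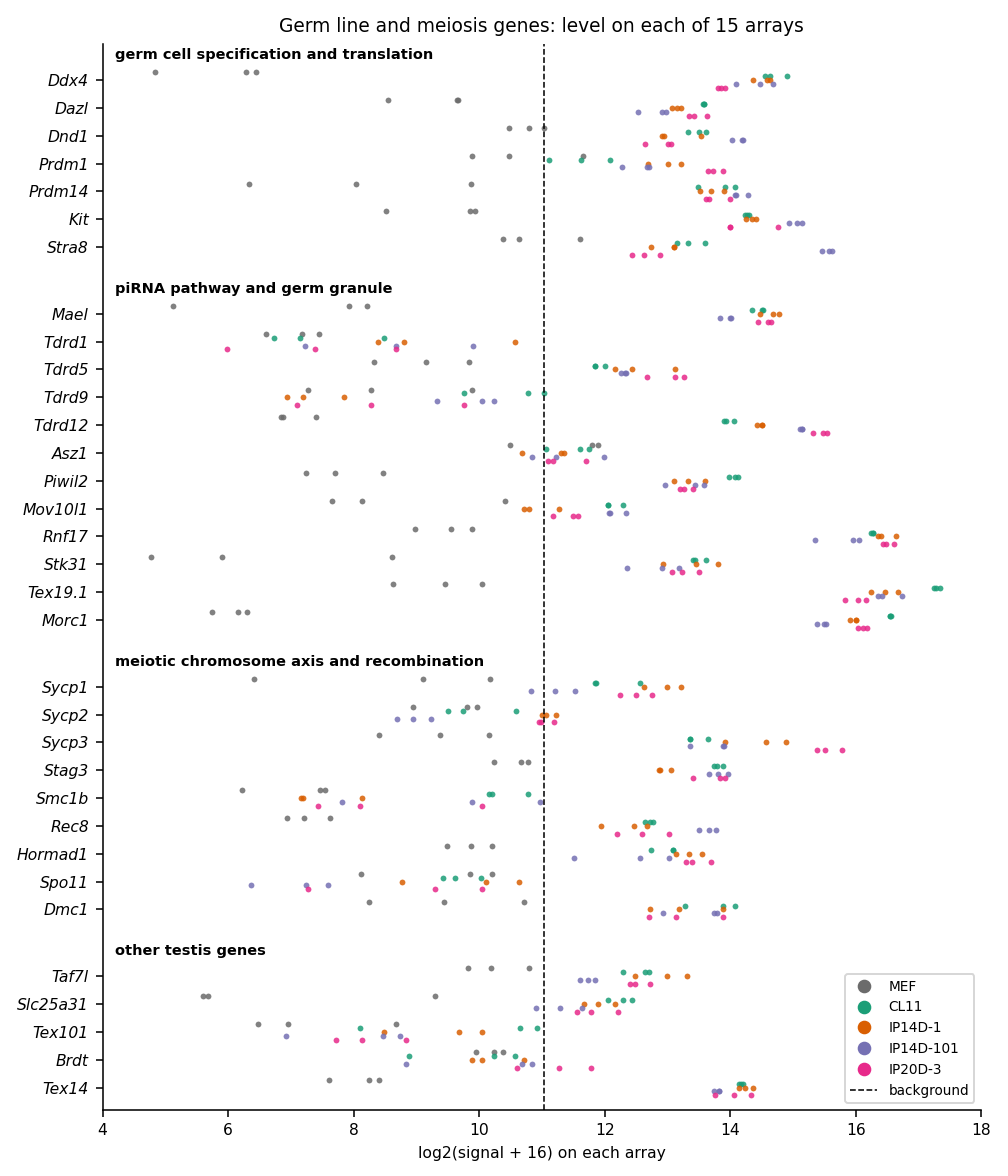
Level of each of the 33 measured members on each of 15 arrays, as log2(signal + 16) on the x axis, grouped by role on the y axis; points are arrays, coloured by group, and the dashed line is background at 11.04. MEF points lie left of the pluripotent points for most members, while those of Tdrd1, Tdrd9, Asz1, Sycp2, Smc1b, Spo11, Tex101 and Brdt mix and those of Prdm1 touch CL11.

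A change was called where limma's Benjamini-Hochberg adjusted p over all 18193 genes was under 0.05. Against MEF, 28 members were higher in CL11 and 0 lower, where 30.3% of all genes were higher and 23.8% lower. In IP14D-1 26 were higher and 0 lower (29.9% and 22.9% of all genes). In IP14D-101 26 were higher and 1, Spo11, was lower (30.4% and 24.7%). In IP20D-3 26 were higher and 0 lower (30.4% and 23.7%). The median member difference was 3.53, 3.79, 3.52 and 3.91 on the log2 scale in these lines, against 0.07, 0.13, 0.05 and 0.10 for all genes. The 4 comparisons share the MEF arrays. The members were chosen with earlier results of these data known, so their shares beside those of all genes are no test of the list. In all 4 lines 25 of the 33 members were higher (75.8%), against 23.5% of all genes, and each of the 25 had a MEF mean below background. Their changes are therefore lower bounds, written as at least N-fold, for which MEF arrays below background were set to background, except Mov10l1 in IP14D-1, where both means were below it and no fold is given. The fitted log2 differences, medians included, use MEF values below background and are no bounds.

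With arrays left unscaled, 26 members were called in each line but IP20D-3, where 25 were, and the medians over all genes became -0.34, 0.05, -0.51 and -0.52. All genes called higher and lower then split 20.4% to 31.8% in CL11, 18.1% to 36.3% in IP14D-101 and 17.1% to 36.9% in IP20D-3. With arrays scaled to equal medians the split in IP14D-101 was 36.9% to 17.9%, with a median over all genes of 0.39, and the median in CL11 was 0.29.

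**Figure D3:**
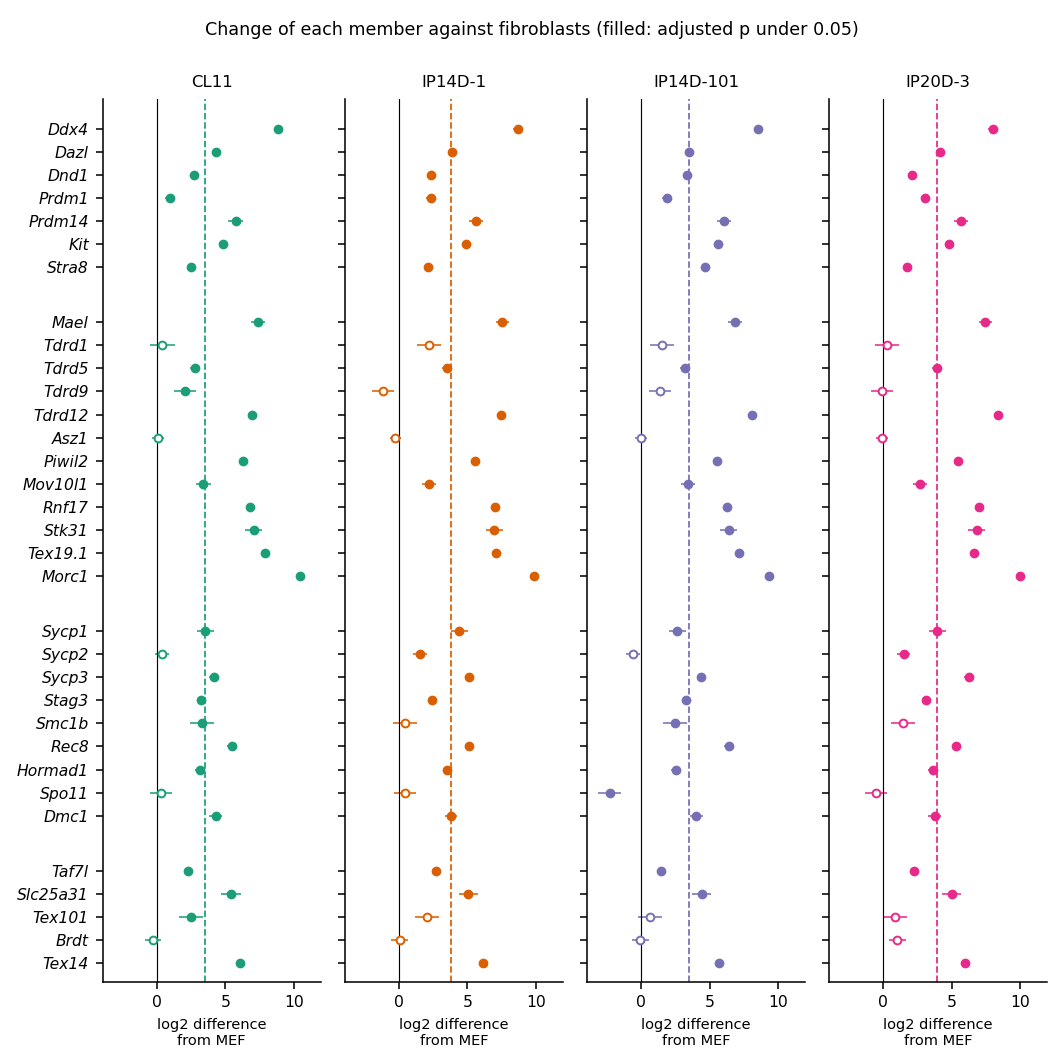
Difference of each member from MEF in the 4 pluripotent lines, in log2 units on the x axis, with its standard error; filled points have an adjusted p under 0.05 by limma and open points do not, the solid line is 0 and the dashed line is the median of the 33 members. The medians stand at 3.53, 3.79, 3.52 and 3.91.

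All 7 measured genes of germ cell specification and translation were higher than MEF in all 4 lines. Ddx4 encodes the RNA helicase VASA, a classical marker of germ cells. Ddx4 read 4.83, 6.28 and 6.44 in MEF and 14.55, 14.90 and 14.63 in CL11. For Ddx4 the iPS arrays read 14.58, 14.64 and 14.37 (IP14D-1), 14.47, 14.69 and 14.09 (IP14D-101) and 13.80, 13.91 and 13.85 (IP20D-3). The MEF arrays lay far below background and every pluripotent array above it, and the rise was at least 7.05-fold in IP20D-3 to at least 12.6-fold in CL11 (adjusted p from 1.84e-14 to 7.19e-14). Dazl encodes an RNA-binding protein needed for germ cell development. Dazl read 9.65, 8.55 and 9.67 in MEF and 13.59, 13.56 and 13.59 in CL11. For Dazl the iPS arrays read 13.07, 13.22 and 13.15 (IP14D-1), 12.91, 12.98 and 12.53 (IP14D-101) and 13.35, 13.42 and 13.63 (IP20D-3). No line array overlapped MEF, and Dazl was higher by at least 3.40-fold in IP14D-101 to at least 5.83-fold in CL11 (adjusted p from 4.68e-11 to 8.02e-10). A second probe set of Dazl, also below background in MEF, was called higher in all 4 lines too.

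Dnd1 encodes an RNA-binding protein that protects primordial germ cells. Dnd1 read 10.80, 11.03 and 10.48 in MEF and 13.33, 13.50 and 13.62 in CL11. For Dnd1 the iPS arrays read 13.54, 12.94 and 12.91 (IP14D-1), 14.20, 14.03 and 14.19 (IP14D-101) and 13.06, 13.01 and 12.64 (IP20D-3). All MEF arrays were below background, and Dnd1 was higher by at least 3.65-fold in IP20D-3 to at least 8.59-fold in IP14D-101 (adjusted p from 4.92e-11 to 3.43e-08). Prdm14 encodes a transcriptional regulator that acts both in naive pluripotency and in germ cell specification. Prdm14 read 6.33, 8.04 and 9.87 in MEF and 14.08, 13.49 and 13.92 in CL11. For Prdm14 the iPS arrays read 13.70, 13.90 and 13.52 (IP14D-1), 14.08, 14.29 and 14.09 (IP14D-101) and 13.99, 13.62 and 13.67 (IP20D-3). The line arrays lay between 13.49 and 14.29, above all MEF arrays, and Prdm14 was higher by at least 6.36-fold in IP14D-1 to at least 8.68-fold in IP14D-101 (adjusted p from 7.62e-09 to 2.48e-08).

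Prdm1 encodes BLIMP1, a repressor that sets aside primordial germ cells. Prdm1 read 9.88, 10.48 and 11.65 in MEF and 12.08, 11.12 and 11.63 in CL11. For Prdm1 the iPS arrays read 13.22, 13.01 and 12.69 (IP14D-1), 12.27, 12.68 and 12.71 (IP14D-101) and 13.73, 13.64 and 13.89 (IP20D-3). The CL11 arrays overlapped the highest MEF array. Prdm1 was higher by at least 1.29-fold in CL11 to at least 5.70-fold in IP20D-3 (adjusted p from 3.71e-07 to 0.0312). The CL11 call was lost without CL11 replicate 1 (adjusted p = 0.14) or 3 (0.066) and without MEF replicate 1 (0.19) or 2 (0.086), and in unscaled data (0.29).

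Kit encodes the receptor of stem cell factor, which germ cells need to migrate and survive, and Stra8 is induced by retinoic acid at the entry into meiosis. Kit read 9.94, 9.85 and 8.51 in MEF and 14.23, 14.30 and 14.27 in CL11. For Kit the iPS arrays read 14.25, 14.34 and 14.41 (IP14D-1), 14.94, 15.14 and 15.07 (IP14D-101) and 14.00, 13.99 and 14.76 (IP20D-3). MEF and line arrays did not overlap, and Kit was higher by at least 9.27-fold in IP20D-3 to at least 16.1-fold in IP14D-101 (adjusted p from 2.27e-12 to 2.11e-11). Its second probe set was called higher in all 4 lines by less. The fitted log2 differences were 2.07 to 2.95, against 4.82 to 5.61 for the brightest probe set. Kit also marks mast cells and melanocytes. All 5 mast cell markers were below background in each line, as were Tyr and Dct of the 4 melanocyte markers. Pmel was called higher than MEF in all 4 lines and above background in each, and Mlana was called higher in CL11, IP14D-1 and IP20D-3, with means of 11.47 in CL11 and 11.51 in IP14D-1 above background. Their part in the level of Kit was not tested. Stra8 read 10.64, 10.38 and 11.61 in MEF and 13.60, 13.33 and 13.15 in CL11. For Stra8 the iPS arrays read 13.11, 13.10 and 12.74 (IP14D-1), 15.62, 15.57 and 15.46 (IP14D-101) and 12.88, 12.62 and 12.44 (IP20D-3). The IP14D-101 arrays stood above all others, and Stra8 was higher than MEF by at least 2.67-fold in IP20D-3 to at least 19.9-fold in IP14D-101 (adjusted p from 5.71e-12 to 4.49e-06).

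Of the 12 measured genes of the piRNA pathway and the germ granule, 10 were higher in CL11 and 9 in each iPS line. Mael and Piwil2 act in transposon silencing, Piwil2 as a piRNA-binding PIWI protein. Mael read 8.21, 5.12 and 7.93 in MEF and 14.51, 14.34 and 14.53 in CL11. For Mael the iPS arrays read 14.69, 14.78 and 14.48 (IP14D-1), 14.02, 13.84 and 13.99 (IP14D-101) and 14.61, 14.44 and 14.65 (IP20D-3). Its line arrays spanned 13.84 to 14.78, and Mael was higher by at least 7.53-fold in IP14D-101 to at least 12.2-fold in IP14D-1 (adjusted p from 1.50e-10 to 5.43e-10). Piwil2 read 8.47, 7.24 and 7.70 in MEF and 14.13, 14.07 and 13.98 in CL11. For Piwil2 the iPS arrays read 13.33, 13.60 and 13.10 (IP14D-1), 13.44, 12.96 and 13.58 (IP14D-101) and 13.40, 13.20 and 13.26 (IP20D-3). MEF lay below background on every array, and Piwil2 was higher by at least 4.75-fold in IP20D-3 to at least 8.13-fold in CL11 (adjusted p from 4.89e-13 to 3.19e-12).

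Tdrd12 and Tdrd5 encode tudor domain proteins of the germ granule. Tdrd12 read 6.87, 7.40 and 6.85 in MEF and 14.06, 13.90 and 13.93 in CL11. For Tdrd12 the iPS arrays read 14.50, 14.50 and 14.42 (IP14D-1), 15.14, 15.14 and 15.12 (IP14D-101) and 15.54, 15.32 and 15.48 (IP20D-3). All line arrays lay above all MEF arrays, and Tdrd12 was higher by at least 7.59-fold in CL11 to at least 21.2-fold in IP20D-3 (adjusted p from 3.07e-18 to 4.30e-17). Tdrd5 read 9.84, 8.32 and 9.16 in MEF and 11.84, 11.85 and 12.01 in CL11. For Tdrd5 the iPS arrays read 13.12, 12.43 and 12.17 (IP14D-1), 12.26, 12.33 and 12.34 (IP14D-101) and 13.12, 13.26 and 12.68 (IP20D-3). The lines lay above all MEF arrays, and Tdrd5 was higher by at least 1.82-fold in CL11 to at least 3.95-fold in IP20D-3 (adjusted p from 1.54e-08 to 1.49e-06).

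Mov10l1 encodes a helicase that binds piRNA precursors. Mov10l1 read 7.66, 8.14 and 10.42 in MEF and 12.05, 12.05 and 12.30 in CL11. For Mov10l1 the iPS arrays read 11.27, 10.80 and 10.72 (IP14D-1), 12.07, 12.09 and 12.34 (IP14D-101) and 11.18, 11.57 and 11.50 (IP20D-3). It was called higher in all 4 lines (adjusted p from 1.59e-05 to 0.00159). The rise was at least 2.19-fold in IP14D-101, 2.13-fold in CL11 and 1.30-fold in IP20D-3, and the IP14D-1 mean of 10.93 was itself below background, so no fold is given there.

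Rnf17 and Stk31 also encode tudor domain proteins of germ cells. Rnf17 read 8.98, 9.56 and 9.89 in MEF and 16.27, 16.24 and 16.28 in CL11. For Rnf17 the iPS arrays read 16.40, 16.64 and 16.36 (IP14D-1), 15.96, 16.05 and 15.35 (IP14D-101) and 16.61, 16.43 and 16.48 (IP20D-3). MEF was below background and every line array above it, and Rnf17 was higher by at least 26.9-fold in IP14D-101 to at least 44.3-fold in IP20D-3 (adjusted p from 3.26e-16 to 1.50e-15). Its 3 other probe sets were each higher in all 4 lines. Stk31 read 8.61, 5.90 and 4.77 in MEF and 13.44, 13.61 and 13.41 in CL11. For Stk31 the iPS arrays read 13.46, 13.81 and 12.93 (IP14D-1), 12.91, 13.19 and 12.35 (IP14D-101) and 13.51, 13.23 and 13.07 (IP20D-3). The MEF arrays spread widely below background, and Stk31 was higher by at least 3.43-fold in IP14D-101 to at least 5.47-fold in CL11 (adjusted p from 8.68e-09 to 3.44e-08).

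Tex19.1 encodes a mammal-specific protein of germ and pluripotent cells, and Morc1 an ATPase that represses transposons in male germ cells. Tex19.1 read 10.04, 9.46 and 8.63 in MEF and 17.25, 17.34 and 17.28 in CL11. For Tex19.1 the iPS arrays read 16.46, 16.24 and 16.67 (IP14D-1), 16.42, 16.35 and 16.74 (IP14D-101) and 15.83, 16.04 and 16.16 (IP20D-3). CL11 read highest and MEF lay below background, and Tex19.1 was higher by at least 31.4-fold in IP20D-3 to at least 76.2-fold in CL11 (adjusted p from 1.14e-15 to 1.27e-14). Morc1 read 6.16, 5.74 and 6.31 in MEF and 16.55, 16.56 and 16.54 in CL11. For Morc1 the iPS arrays read 16, 15.91 and 16 (IP14D-1), 15.52, 15.49 and 15.38 (IP14D-101) and 16.04, 16.11 and 16.18 (IP20D-3). MEF lay below background on every array and the lines above it, and Morc1 was higher by at least 21.4-fold in IP14D-101 to at least 45.7-fold in CL11 (adjusted p from 1.00e-20 to 3.94e-20).

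Asz1, Tdrd1 and Tdrd9 did not follow. Asz1, a germ granule component, read between 10.49 and 11.99 over all 15 arrays and was called in 0 of the 4 comparisons with MEF, and its second probe set had every group mean below background. Tdrd1 read between 5.99 and 10.57, below background on every array. Tdrd9, a helicase of the piRNA pathway, read between 6.94 and 11.03 and had every group mean below background. It was called higher in CL11 (adjusted p = 0.0384), and this was lost without CL11 replicate 1 (0.12) or 3 (0.097) and without MEF replicate 1 (0.091) or 3 (0.18).

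Of the 9 genes of the meiotic chromosome axis and recombination, 6 were higher than MEF in all 4 lines. Sycp1, Sycp2 and Sycp3 encode proteins of the synaptonemal complex. Sycp3 read 8.41, 9.38 and 10.15 in MEF and 13.65, 13.36 and 13.36 in CL11. For Sycp3 the iPS arrays read 14.57, 14.89 and 13.91 (IP14D-1), 13.89, 13.90 and 13.36 (IP14D-101) and 15.78, 15.39 and 15.51 (IP20D-3). Every line array lay above every MEF array, and Sycp3 was higher by at least 5.36-fold in CL11 to at least 23.0-fold in IP20D-3 (adjusted p from 4.33e-12 to 1.60e-09). Sycp1 read 9.10, 6.41 and 10.18 in MEF and 12.56, 11.87 and 11.84 in CL11. For Sycp1 the iPS arrays read 12.63, 13.21 and 13.00 (IP14D-1), 11.21, 11.53 and 10.82 (IP14D-101) and 12.25, 12.50 and 12.75 (IP20D-3). MEF spread from 6.41 to 10.18, all below the lines, and Sycp1 was higher by at least 1.11-fold in IP14D-101 to at least 3.76-fold in IP14D-1 (adjusted p from 6.76e-06 to 0.00139). Sycp2 read 9.81, 9.96 and 8.94 in MEF and 10.58, 9.75 and 9.51 in CL11. For Sycp2 the iPS arrays read 11.23, 11.06 and 11.01 (IP14D-1), 8.69, 9.24 and 8.94 (IP14D-101) and 11.20, 10.96 and 10.99 (IP20D-3). The IP14D-1 and IP20D-3 arrays lay at background and the other groups below it. In IP14D-1 Sycp2 was called higher by at least 1.04-fold (adjusted p = 0.0143), and in IP20D-3 by at least 1.01-fold (0.0168). These calls were lost without MEF replicate 3 (0.069 and 0.079), and that in IP20D-3 also without IP20D-3 replicate 1 (0.05).

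Stag3 and Rec8 encode subunits of the meiotic cohesin ring, and Hormad1 a protein of the unsynapsed chromosome axis. Stag3 read 10.23, 10.78 and 10.66 in MEF and 13.88, 13.74 and 13.79 in CL11. For Stag3 the iPS arrays read 13.06, 12.89 and 12.87 (IP14D-1), 13.80, 13.97 and 13.66 (IP14D-101) and 13.91, 13.40 and 13.84 (IP20D-3). All 3 MEF arrays were just below background, and Stag3 was higher by at least 3.74-fold in IP14D-1 to at least 6.83-fold in IP14D-101 (adjusted p from 1.77e-11 to 1.75e-09). Rec8 read 6.94, 7.63 and 7.21 in MEF and 12.77, 12.64 and 12.73 in CL11. For Rec8 the iPS arrays read 12.47, 11.94 and 12.67 (IP14D-1), 13.78, 13.50 and 13.67 (IP14D-101) and 12.19, 12.60 and 13.02 (IP20D-3). The MEF arrays were all below background and the line arrays above it, and Rec8 was higher by at least 2.50-fold in IP14D-1 to at least 6.11-fold in IP14D-101 (adjusted p from 1.59e-12 to 4.73e-11). Hormad1 read 9.87, 10.20 and 9.49 in MEF and 13.09, 13.09 and 12.74 in CL11. For Hormad1 the iPS arrays read 13.35, 13.55 and 13.13 (IP14D-1), 12.57, 13.02 and 11.51 (IP14D-101) and 13.70, 13.30 and 13.39 (IP20D-3). Arrays of the lines lay above MEF, and Hormad1 was higher by at least 2.51-fold in IP14D-101 to at least 5.37-fold in IP20D-3 (adjusted p from 7.39e-09 to 1.03e-06).

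Dmc1 encodes the meiosis-specific recombinase that pairs DNA strands between homologs, and Spo11 the enzyme that makes the initiating breaks. Dmc1 read 10.72, 8.25 and 9.44 in MEF and 13.89, 14.07 and 13.28 in CL11. For Dmc1 the iPS arrays read 12.72, 13.88 and 13.18 (IP14D-1), 13.79, 13.75 and 12.93 (IP14D-101) and 13.89, 13.13 and 12.70 (IP20D-3). Dmc1 was higher by at least 4.60-fold in IP20D-3 to at least 6.53-fold in CL11 (adjusted p from 2.43e-07 to 1.27e-06), and its second probe set was higher in all 4 lines. Spo11 read between 6.36 and 10.64, below background on every array. It was called lower in IP14D-101 (adjusted p = 0.0208), a call lost without IP14D-101 replicate 2 (0.078) and without MEF replicate 1 (0.07) or 2 (0.092). Smc1b, a further cohesin subunit, read between 6.23 and 10.97, also below background throughout. It was called higher in CL11 (adjusted p = 0.00286) and IP14D-101 (0.0197), the second lost without IP14D-101 replicate 1 (0.059) or 2 (0.12) or MEF replicate 1 (0.083). With both means below background, no fold is given for Spo11, Smc1b or Tdrd9.

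Among 5 other testis genes, 3 were higher in all 4 lines. Taf7l, which is X-linked, encodes a testis variant of a subunit of the general transcription factor TFIID. Taf7l read 10.79, 9.82 and 10.19 in MEF and 12.65, 12.29 and 12.70 in CL11. For Taf7l the iPS arrays read 12.49, 13.00 and 13.31 (IP14D-1), 11.85, 11.60 and 11.73 (IP14D-101) and 12.49, 12.41 and 12.73 (IP20D-3). Every line array lay above MEF, and Taf7l was higher by at least 1.61-fold in IP14D-101 to at least 3.71-fold in IP14D-1 (adjusted p from 1.99e-07 to 2.48e-04). Slc25a31 encodes a testis form of the mitochondrial ADP/ATP carrier. Slc25a31 read 9.29, 5.68 and 5.60 in MEF and 12.29, 12.44 and 12.06 in CL11. For Slc25a31 the iPS arrays read 12.17, 11.90 and 11.67 (IP14D-1), 11.64, 10.91 and 11.29 (IP14D-101) and 11.78, 12.22 and 11.56 (IP20D-3). It was higher by at least 1.18-fold in IP14D-101 to at least 2.34-fold in CL11 (adjusted p from 1.77e-06 to 2.04e-05). Tex14 encodes a protein of the bridges between dividing germ cells. Tex14 read 7.61, 8.24 and 8.41 in MEF and 14.14, 14.18 and 14.20 in CL11. For Tex14 the iPS arrays read 14.14, 14.36 and 14.24 (IP14D-1), 13.74, 13.82 and 13.83 (IP14D-101) and 14.33, 13.76 and 14.06 (IP20D-3). The line arrays spanned 13.74 to 14.36, and Tex14 was higher by at least 6.77-fold in IP14D-101 to at least 9.25-fold in IP14D-1 (adjusted p from 9.47e-15 to 2.18e-14). Tex101 and Brdt, a bromodomain protein of spermatocytes, read between 6.48 and 10.92 and between 8.84 and 11.79. Tex101 was called in CL11 (adjusted p = 0.0205), with both means below background and a call lost without CL11 replicate 1 (0.083) or 2 (0.099) or MEF replicate 2 (0.088) or 3 (0.064). Brdt was called in 0 comparisons with its brightest probe set, and of its 2 others 1 was higher in 2 lines with every mean below background.

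Between pluripotent lines the members differed far less than from fibroblasts. Of the 33, 19 were called in at least 1 of the 6 pairs of lines and 14 in 0 pairs. These pairs share arrays with each other. The share of all genes called in at least 1 pair was not counted, so the 19 cannot be set against it. Shares of all genes are given pair by pair. Against CL11, 3 members were higher and 5 lower in IP14D-1 (11.7% and 12.6% of all genes), 3 higher and 3 lower in IP14D-101 (6.04% and 5.47%), and 4 higher and 3 lower in IP20D-3 (10.5% and 11.3%). IP14D-101 against IP14D-1 gave 6 higher and 7 lower (14.9% and 13.1%). IP20D-3 against IP14D-1 gave 3 higher and 0 lower (4.87% and 4.33%), and IP20D-3 against IP14D-101 gave 7 higher and 4 lower (11.0% and 12.5%). The median member difference in the 6 pairs lay between -0.38 and 0.25.

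These splits moved with the scaling of the arrays. In IP14D-1 against CL11, median scaling gave 1 member higher and 8 lower (5.79% and 21.0% of all genes) and unscaled data 4 and 2 (21.5% and 2.88%). In IP14D-101 against CL11 the same settings gave 4 and 1 (6.49% and 2.47%) and 2 and 3 (1.42% and 5.80%). In IP20D-3 against CL11 they gave 3 and 6 (5.78% and 13.0%) and 3 and 7 (3.83% and 16.7%). IP14D-101 against IP14D-1 gave 9 and 3 (29.6% and 5.68%) and 1 and 10 (1.92% and 32.0%). IP20D-3 against IP14D-1 gave 3 and 0 (4.97% and 1.87%) and 0 and 7 (0.379% and 38.4%). IP20D-3 against IP14D-101 gave 6 and 6 (5.20% and 21.4%) and 5 and 4 (6.40% and 11.0%). Of the 48 called differences of single members, 25 were kept in every fit that left out 1 array, 17 under every alternative, and 0 changed direction. The following paragraphs name, for each member, the arrays without which a call was lost; 26 of the 48 were lost under at least 1 other alternative. Scaling settings under which a call was lost are named too, where a group mean was above background.

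**Figure D4:**
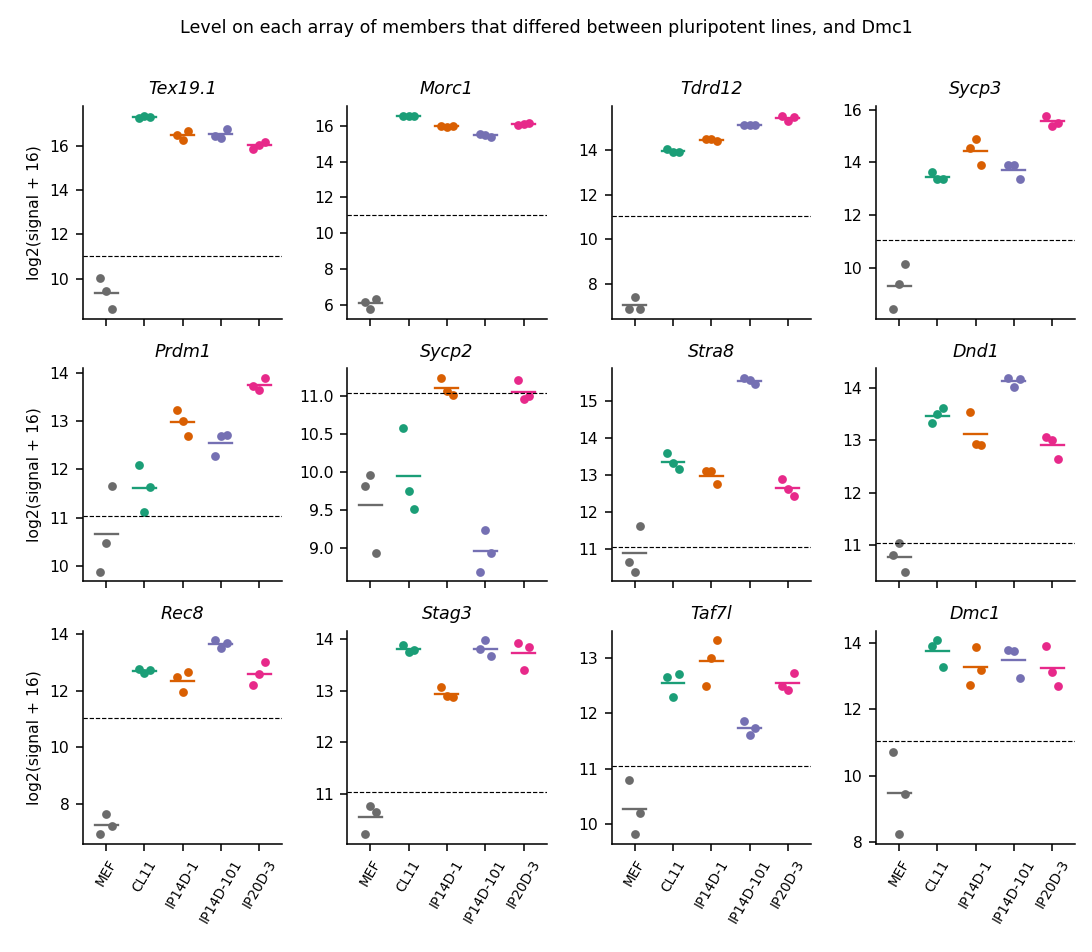
Level on each array, as log2(signal + 16) on the y axis, of 11 members that differed between pluripotent lines and of Dmc1, which was called in 0 pairs; points are arrays, bars are group means (n = 3) and the dashed line is background. Stra8 stands highest in IP14D-101 (15.55), Sycp3 and Prdm1 in IP20D-3 (15.56 and 13.75), and Tex19.1 and Morc1 in CL11 (17.29 and 16.55).

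Tex19.1 and Morc1 were lower in every iPS line than in CL11. Tex19.1 had a mean of 17.29 ± 0.05 in CL11 (SD, n = 3) and was lower by 1.28 on the log2 scale in IP20D-3 (SE 0.23, 2.43-fold, adjusted p = 4.30e-04), 0.83 in IP14D-1 (1.78-fold, 0.0114) and 0.79 in IP14D-101 (1.72-fold, 0.0308). The 3 CL11 arrays stood above all 9 iPS arrays. The IP20D-3 call was kept under every alternative. The IP14D-1 call was lost without IP14D-1 replicate 2 (adjusted p = 0.061), in unscaled data (0.071) or without a variance trend (0.056). The IP14D-101 call was lost in 5 of 6 fits that left out an array, without any CL11 array (0.071, 0.096 and 0.08) or without IP14D-101 replicate 1 (0.088) or 2 (0.096). It was also lost with median scaling (0.13) and with quantile normalization (0.057).

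Morc1 averaged 16.55 ± 0.01 in CL11 (SD, n = 3) and was lower by 1.09 in IP14D-101 (SE 0.13, 2.13-fold, adjusted p = 1.33e-05), 0.58 in IP14D-1 (1.49-fold, 0.00201) and 0.44 in IP20D-3 (1.36-fold, 0.0150). IP14D-101 was also below IP14D-1 (by 0.51, 0.00445) and below IP20D-3 (by 0.65, 8.36e-04), so CL11 was highest and IP14D-101 lowest. The IP20D-3 difference from CL11 was lost without CL11 replicate 2 (0.052) or IP20D-3 replicate 1 (0.067). The IP14D-1 difference from CL11 was lost in unscaled data (0.33) and its difference from IP14D-101 with median scaling (0.46).

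Tdrd12 was lowest in CL11. Its group means ran from 13.96 ± 0.08 in CL11 through 14.47 ± 0.04 in IP14D-1 and 15.13 ± 0.01 in IP14D-101 to 15.45 ± 0.11 in IP20D-3 (SD, n = 3). Against CL11 it was 2.80-fold higher in IP20D-3 (adjusted p = 1.62e-06), 2.25-fold in IP14D-101 (6.24e-05) and 1.43-fold in IP14D-1 (0.0211). The first 2 of these were kept under every alternative. The IP14D-1 difference from CL11 was lost without CL11 replicate 2 (0.074) or 3 (0.067) or IP14D-1 replicate 1 or 2 (0.07 each), and with median scaling (0.28). Against IP14D-1, Tdrd12 was 1.58-fold higher in IP14D-101 (0.00352) and 1.96-fold in IP20D-3 (5.47e-04), both lost in unscaled data (0.5 and 0.081). IP20D-3 and IP14D-101, neighbours in this order, were not called different.

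Sycp3 and Prdm1 were highest in IP20D-3. Sycp3 was 4.28-fold higher there than in CL11 (a log2 difference of 2.10, SE 0.32, adjusted p = 9.99e-05) and 3.59-fold higher than in IP14D-101 (3.55e-04), both kept under every alternative. It was 2.15-fold higher than in IP14D-1 (0.0382), lost in 5 of 6 fits that left out an array (0.083 and 0.18 without IP14D-1 replicate 1 or 3, and 0.14, 0.065 and 0.09 without IP20D-3 replicates 1 to 3). That difference was also lost in unscaled data (0.23). IP14D-1 was 1.99-fold above CL11 (0.0300), lost without CL11 replicate 2 (0.088) or 3 (0.09) or IP14D-1 replicate 1 (0.092) or 2 (0.15). The latter call was also lost with median scaling (0.058).

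Prdm1 was 4.42-fold higher in IP20D-3 than in CL11 (2.14, SE 0.35, adjusted p = 2.06e-04) and 2.57-fold higher in IP14D-1 than in CL11 (0.00795), both kept under every alternative. It was 2.30-fold higher in IP20D-3 than in IP14D-101 (0.0183), lost without IP14D-101 replicate 1 (0.072) or IP20D-3 replicate 1 (0.051) or 3 (0.064). That call was also lost in unscaled data (0.052). For Prdm1, IP20D-3 and IP14D-1 were not called different. Of the 7 genes of the specification role, Prdm1 alone was called higher than CL11 in IP14D-1 or in IP20D-3.

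Stra8, Rec8, Dnd1 and Kit were highest in IP14D-101. Stra8 averaged 15.55 ± 0.08 there against 13.36 ± 0.23 in CL11, 12.98 ± 0.21 in IP14D-1 and 12.65 ± 0.22 in IP20D-3 (SD, n = 3). It was 4.56-fold above CL11 (2.19, SE 0.25, adjusted p = 1.09e-05), 5.92-fold above IP14D-1 (6.20e-07) and 7.47-fold above IP20D-3 (1.83e-07), and these 3 calls were kept under every alternative. Stra8 was also 1.64-fold lower in IP20D-3 than in CL11 (0.0452), lost without any 1 CL11 array (0.16, 0.095 and 0.053) or without IP20D-3 replicate 2 (0.099) or 3 (0.15).

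Dnd1 was 2.35-fold higher in IP14D-101 than in IP20D-3 (adjusted p = 2.28e-04), kept under every alternative, and 2.01-fold higher than in IP14D-1 (0.00106), lost in unscaled data (0.095). Its 1.58-fold difference from CL11 (0.0459) was lost in all 6 fits that left out an array (0.066 to 0.151). This difference was also lost in unscaled data (0.24) and with quantile normalization (0.067). Rec8 was 2.44-fold higher in IP14D-101 than in IP14D-1 (0.00376), lost in unscaled data (0.072), and 2.06-fold higher than in IP20D-3 (0.0181), lost without IP14D-101 replicate 1 (0.069) or 3 (0.055) or IP20D-3 replicate 1 (0.099). Rec8 was not called in IP14D-101 against CL11. Kit was 1.74-fold higher in IP14D-101 than in IP20D-3 (0.0446), and its second probe set was called in 1 pair. The Kit call was lost in 5 of 6 fits that left out an array, all but that without IP20D-3 replicate 3 (up to 0.162). It was also lost with quantile normalization (0.071). Kit was not called in IP14D-101 against CL11 or IP14D-1.

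Taf7l, Hormad1, Sycp1, Sycp2 and Rnf17 were called lower in IP14D-101 than in IP14D-1, and all but Sycp1 also than in IP20D-3. Their differences between IP14D-101 and CL11 were not called. Taf7l was 2.30-fold lower in IP14D-101 than in IP14D-1 (adjusted p = 0.00400), kept under every alternative. Against IP20D-3 it was 1.76-fold lower (0.0491), lost in all 6 fits that left out an array (0.071 to 0.148). The latter call was also lost with median scaling or quantile normalization (0.21 each) and in unscaled data (0.12). Sycp2 was lower in IP14D-101 than in IP14D-1 by 2.14 on the log2 scale (SE 0.50, 0.00312) and than in IP20D-3 by 2.09 (0.00451). Both calls were kept under every alternative, but the IP14D-101 mean of 8.96 was below background, so the folds are given as at least 1.04-fold and 1.01-fold.

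Hormad1 was 1.97-fold lower in IP14D-101 than in IP14D-1 (adjusted p = 0.0246) and 2.14-fold lower than in IP20D-3 (0.0146). Both were lost without IP14D-101 replicate 3 (0.15 and 0.085), the first also without IP14D-1 replicate 1 (0.064) or 2 (0.098) and the second without IP20D-3 replicate 1 (0.069). The first was also lost with median scaling (0.12) and quantile normalization (0.063). Sycp1 was 3.38-fold lower in IP14D-101 than in IP14D-1 (0.0438), lost in all 6 fits that left out an array (0.056 to 0.13). The Sycp1 call was also lost with median scaling (0.08) and quantile normalization (0.086). Rnf17 was 1.60-fold lower in IP14D-101 than in IP14D-1 (0.0101) and 1.65-fold lower than in IP20D-3 (0.00793). Both were lost without IP14D-101 replicate 3 (0.068 and 0.052) and the first without IP14D-1 replicate 2 (0.054) or with median scaling (0.14). For Rnf17, 2 of the 4 probe sets were called in 0 pairs of lines.

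Stag3 was lowest in IP14D-1. It was 1.82-fold lower there than in CL11 (adjusted p = 0.00200), 1.83-fold lower than in IP14D-101 (0.00155) and 1.71-fold lower than in IP20D-3 (0.0127). All were lost in unscaled data (0.089, 0.19 and 0.44), the last also without IP20D-3 replicate 1 (0.069) or 3 (0.059). The fibroblast markers were highest in that line among the pluripotent lines, as given above, and their part was not tested. Tdrd5 was 2.18-fold higher in IP20D-3 than in CL11 (0.0298), lost in 5 of 6 fits that left out an array, without any 1 CL11 array (0.074, 0.079 and 0.06) or IP20D-3 replicate 1 (0.093) or 2 (0.11). The Tdrd5 call was also lost with median scaling (0.063), with quantile normalization (0.066) and in unscaled data (0.12). Tdrd9, Smc1b and Spo11 were called in 5 pairs in all with both means below background, and no fold is given.

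The 14 members called in 0 pairs were Ddx4, Dazl, Prdm14, Mael, Tdrd1, Asz1, Piwil2, Mov10l1, Stk31, Dmc1, Slc25a31, Tex101, Brdt and Tex14. A p that misses the threshold does not show that lines are alike. The distance between the highest and lowest line mean was 0.45 for Tex14 and Prdm14, 0.50 for Dmc1, 0.67 for Stk31, 0.70 for Mael, 0.78 for Dazl and Piwil2, 0.83 for Ddx4, 0.99 for Slc25a31 and 1.24 for Mov10l1, on the log2 scale.

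Further genes of the same pathways were counted from lists chosen with earlier results of these data known. Of 27 other meiosis genes measured, 18 were higher than MEF in CL11 and 3 lower, and 16 to 18 were higher in the iPS lines. In CL11 these are 66.7% and 11.1%, beside 30.3% and 23.8% of all genes. In the iPS lines 59.3% to 66.7% were higher, beside 29.9% to 30.4% of all genes. Syce1, a central element protein of the synaptonemal complex, rose from 7.40 ± 0.62 in MEF to 14.23 ± 0.07 in CL11 (SD, n = 3), at least 9.11-fold (adjusted p = 4.40e-14). Tex11 rose by at least 3.01-fold (5.37e-11) and Meioc, a regulator of meiotic prophase, by at least 2.94-fold (4.99e-08). Syce2, another central element protein, was 8.15-fold higher (1.29e-16) from a MEF mean of 14.15, above background. Cntd1, Mei4 and Ythdc2 were lower in CL11.

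Of 15 other piRNA and germ granule genes, 8 were higher and 3 lower in CL11 and 7 higher and 3 lower in each iPS line. The shares higher were 53.3% in CL11 and 46.7% in each iPS line, beside 29.9% to 30.4% of all genes. The share lower was 20.0% in each line, near the 22.9% to 24.7% of all genes. In CL11 Ddx25 rose by at least 6.29-fold (adjusted p = 1.16e-11), Pld6, which encodes a mitochondrial nuclease of piRNA biogenesis, by at least 2.68-fold (2.22e-05), and Gpat2 by at least 1.89-fold (9.44e-06). Tdrd7 fell from 13.97 ± 0.10 in MEF to 10.97 ± 0.68 (SD, n = 3), at least 6.66-fold (5.30e-05).

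Of 16 other germ cell specification genes, 12 were higher in CL11 and 1 lower, beside 30.3% and 23.8% of all genes. In the iPS lines 10 or 11 were higher, beside 29.9% to 30.4% of all genes. How many of these genes also act in pluripotent cells was not counted, so the counts are not specific to germ cells. Lin28a, which blocks let-7 maturation, was at least 106-fold higher in CL11 (adjusted p = 6.63e-12), the transcription factor gene Sall4 at least 121-fold (3.07e-19), Dppa2 at least 134-fold (3.05e-15) and Tfap2c at least 19.6-fold (5.41e-12). Among 12 X-linked germ line genes 4 were higher in CL11 and in IP14D-101 (33.3%, near the 30.3% and 30.4% of all genes) and 6 in IP14D-1 and in IP20D-3 (50%), and 0 were lower. Mageb16 was at least 38.8-fold higher in CL11 (1.30e-12), Rhox5 at least 46.9-fold (1.23e-16), Rhox6 at least 4.39-fold (4.79e-08) and Rhox9 2.62-fold (1.05e-05).

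Of 20 spermatid genes 3 were higher and 1 lower in CL11, and 2 or 3 were higher in the iPS lines (10.0% to 15.0%, beside 29.9% to 30.4% of all genes), with medians of 0.08 to 0.35 on the log2 scale. Gapdhs, a sperm glycolytic enzyme, was the 1 spermatid gene that was called in CL11 with a mean above background, by at least 1.34-fold (adjusted p = 0.0300). Of 19 oocyte genes 6 were higher and 1 lower in CL11, and 5 to 7 were higher in the iPS lines (26.3% to 36.8%), near the share of all genes. Ooep, a gene of the subcortical maternal complex, rose 41.7-fold (7.93e-18), Tcl1 17.1-fold (3.21e-12) and Zp3, which encodes a zona pellucida protein, at least 3.96-fold (3.69e-10), while Lhx8 was lower by at least 1.19-fold (0.0126).

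Of 22 genes of regulators known to act at germ line promoters, 16 were higher and 2 lower in CL11, and 16 or 17 were higher in the iPS lines. In CL11 these are 72.7% and 9.09%, beside 30.3% and 23.8% of all genes. In the iPS lines 72.7% to 77.3% were higher, beside 29.9% to 30.4% of all genes. Among genes of DNA methylation in CL11, Dnmt3l was at least 265-fold higher (adjusted p = 4.82e-18), Dnmt3b at least 86.5-fold (2.22e-17), Dnmt3a 19.7-fold (2.04e-12), Uhrf1 9.40-fold (1.14e-15) and Hells 10.0-fold (1.21e-15). The 5-methylcytosine oxidases Tet1 and Tet2 were 101-fold (1.92e-17) and 6.89-fold (5.06e-12) higher. L3mbtl2, a subunit of the repressor complex named above, was 8.46-fold higher (1.77e-16). The subunits named there did not all rise. Mga averaged 14.30 in MEF and 15.88 in CL11, Max 12.14 and 12.08, and E2f6 15.23 and 15.08. Kdm5c and Yaf2 were called lower. Directions in this and the preceding lists are those of single genes, and nothing was tested about the lists themselves.

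**Figure D5:**
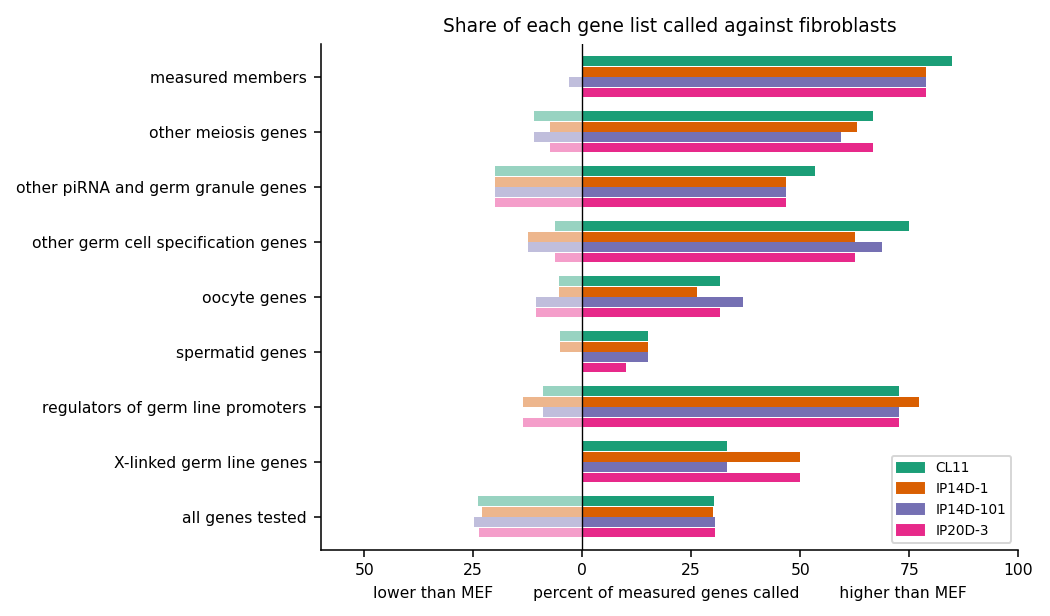
Percent of the measured genes of each list that were called higher than MEF (right, full colour) or lower (left, pale) in each of the 4 pluripotent lines, with all genes tested in the bottom row; called means an adjusted p under 0.05 by limma. The members stand at 78.8% to 84.8% higher, the spermatid genes at 10.0% to 15.0% and all genes at 29.9% to 30.4%.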

How the data were processed

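Total RNA of 15 samples in 5 groups of 3 had been hybridised to 1-colour Affymetrix arrays. The deposited values are linear signal intensities per probe set, for which the submitters' processing notes name MAS5 and Affymetrix Expression Console, with versions not given in the sources used here. Of 45101 probe sets, 64 were controls, 34945 were annotated to 1 gene, 932 to several and 9160 to none. Arrays were scaled to a common mean after trimming 2% at each end, values were taken as log2(intensity + 16), and the brightest single-gene probe set stood for each of 18193 genes. All 15 arrays were fitted in 1 model of group means with limma 3.58.1 in R 4.3.3 (empirical Bayes with a variance trend), and p-values were adjusted by Benjamini-Hochberg over all genes. The code was tested on simulated data. The number of arrays limits the precision.

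Where the dimmer mean was below background a fold is a lower bound, and where both were below no fold is given. Levels in every array are given for members called in at least 1 comparison with a group mean above background, and for each further list up to 4 called genes with the largest change in CL11 (8 for regulators). Genes named because a count was small were named after their values were seen. The members and lists were chosen with earlier results of these data known. Alternatives covered the scaling, the pseudocount, a filter on background, the choice of probe set, the variance trend, the samples fitted, a replicate block and leaving out each array. Promoter windows are RefSeq's, and the deposited files name no genome build.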

Additional observations from a re-analysis of the deposited data

Results flagged for a closer look

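Differences between 2 pluripotent lines of at least 2 on the log2 scale with an adjusted p under 0.05 by limma were singled out where the brighter mean was above background, and 7 met this. A further 5 called differences of that size had both means below background: Tdrd9 and Smc1b in IP14D-1 against CL11, Spo11 in IP14D-101 against CL11, and Spo11 and Tdrd9 in IP14D-101 against IP14D-1. Stra8 accounted for 3. It was higher in IP14D-101 than in CL11 by 2.19 and than in IP14D-1 by 2.56, and its difference of IP20D-3 from IP14D-101 was -2.90. Sycp2 accounted for 2, with -2.14 for IP14D-101 against IP14D-1 and 2.09 for IP20D-3 against IP14D-101, where the IP14D-101 mean was below background. Prdm1 was higher in IP20D-3 than in CL11 by 2.14, and Sycp3 by 2.10. In each of the 7 the arrays of the lines did not overlap. Choosing them by size and adjusted p makes this likely, so it is no further support. Each line was 1 line, so these are differences between lines and not between classes of cells.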

How the results depend on the processing

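Of the 107 member differences from MEF, 100 were called under every alternative, and of the 48 between lines 17 were, and 0 changed direction. The number of members called in IP14D-101 against CL11 was 6, and 3 with quantile normalization, 13 with a pseudocount of 1000 and 10 with only the 2 groups fitted. In IP20D-3 against CL11 it was 7, and 12 and 11 with the last 2 settings. In IP20D-3 against IP14D-1 it was 3, and 7 without further scaling, 5 with the pseudocount of 1000 and 6 with 2 groups. In IP20D-3 against IP14D-101 it was 11, and 17 and 18 with the pseudocount and with 2 groups. The cause was not tested.

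Leaving out 1 array at a time gave 25 to 27 members called against MEF in CL11, IP14D-1 and IP14D-101 and 25 to 26 in IP20D-3. It gave 5 to 8 for IP14D-1 against CL11, 3 to 4 for IP14D-101 against CL11, 4 to 7 for IP20D-3 against CL11, 9 to 12 for IP14D-101 against IP14D-1, 1 to 3 for IP20D-3 against IP14D-1 and 6 to 10 for IP20D-3 against IP14D-101. The first fell from 8 to 5 without CL11 replicate 3 or IP14D-1 replicate 1 or 2, and the second from 6 to 3 without any 1 CL11 array or IP14D-101 replicate 1 or 2. The third fell from 7 to 4 without CL11 replicate 2, and the fifth from 3 to 1 without IP20D-3 replicate 1 or 3. The last fell from 11 to 7 without IP14D-101 replicate 1 and to 6 without IP14D-101 replicate 3 or IP20D-3 replicate 1.

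Samples with the same replicate number did not deviate together over all genes (correlations of -0.03 to 0.033 over 30 pairs, against -0.042 to 0.032 over 60 other pairs). The labels do not say that a number marks a shared day or batch. A correlation over all genes cannot decide this for single genes. With a replicate block, 27 members were called in CL11, IP14D-1 and IP14D-101 against MEF and 26 in IP20D-3. Between lines 43 of the 48 calls were kept. Members near background carry only bounds, and levels below 11.04 have no dependable order.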

Other observations

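Genes outside the member list also differed between IP20D-3 and CL11, and those given here were chosen after their values were seen. Usp26, an X-linked testis gene, was above background in IP20D-3 alone, at 13.14 ± 0.13 (SD, n = 3) against 10.15 ± 0.87 in CL11 and 8.99 ± 0.71 in MEF. It was at least 4.28-fold higher in IP20D-3 than in CL11 (adjusted p = 0.00143 by limma). The X-linked homeobox genes Rhox9 and Rhox5 were 2.49-fold (1.27e-04) and 1.37-fold (0.0247) higher there. Of the 12 X-linked germ line genes 3 were called higher and 0 lower, beside 10.5% and 11.3% of all genes in IP20D-3 against CL11. Dppa3, a gene of primordial germ cells and oocytes, was 2.06-fold higher (0.00961), and Zp3 1.98-fold (0.00166).

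Mei4, which acts in the formation of meiotic breaks, went the other way from most meiosis genes. It was highest in MEF, at 13.77 ± 0.37 (SD, n = 3), against 11.56 ± 0.25 in CL11. Among the lines it was 2.93-fold higher in IP14D-1 than in CL11 (adjusted p = 4.51e-05 by limma) and 2.27-fold higher in IP20D-3 (6.21e-04). IP14D-1 was also the line with the highest summed signal of fibroblast markers (25956 to 28144), and the part of other cells in its Mei4 level was not tested.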
